A study of Mus musculus with 15 samples.

Results

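The ErbB receptors and their ligands were followed as 10 genes, 3 receptors (Egfr, Erbb2 and Erbb3) and 7 ligands (Areg, Ereg, Hbegf, Tgfa, Btc, Epgn and Nrg1), among 55291 genes in tables of normalized counts. The genes were selected on their values in the DON, Gln-free, DRP-104 and tumor against culture comparisons of these same tables, so those values are given as a description without a test. Bulk RNA-seq covered 15 samples in 5 groups of 3, all from HY19636, a murine PDAC line with mutant p53 from pancreatic tumors of C57BL/6 mice that carried p53 L/+ and Ptf1a-Cre. In culture, control cells were compared with cells given DON, a Gln antagonist, at 25 µM for 24 h and with cells kept 24 h without Gln. In mice, HY19636 cells were grown orthotopically in female B6J mice 8 to 10 weeks old, and the mice received vehicle or 3 mg/kg per day of DRP-104, from which DON is released. DRP-104 was given in 2 cycles of 5 days on and 2 days off, starting 7 days after surgery, and tumors were collected on day 21. All groups come from this 1 line, and tumors are whole pieces that also hold cells of an immunocompetent host.

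ErbB receptors are membrane tyrosine kinases that form pairs when an EGF-like ligand binds and then signal through adaptor proteins to the ERK and PI3K pathways. Ligands are made as membrane-anchored precursors that proteases of the ADAM family release, so ligand, protease and receptor each limit signaling. In pancreatic epithelium the pathway is known for its part in acinar-to-ductal change and in tumor formation. Areg, Tgfa and Epgn bind EGFR, Hbegf, Btc and Ereg bind EGFR and ERBB4, and Nrg1 binds ERBB3 and ERBB4. ERBB2 has no known ligand and acts as a partner, and ERBB3 has little kinase activity of its own.

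The ligand genes Epgn, Ereg, Areg and Btc lie together on chromosome 5 of GRCm38 within 375.5 kb. Ereg (91074617 to 91093649, plus strand) lies 46.0 kb before Areg (91139615 to 91148432, plus strand), and Btc (91357261 to 91402994, minus strand) lies 208.8 kb beyond Areg. Epgn (91027464 to 91035215, plus strand) is the first of the 4. The receptors lie apart, Egfr on chromosome 11 from 16752203 to 16918158, Erbb2 on chromosome 11 from 98412470 to 98437716 and Erbb3 on chromosome 10 from 128567523 to 128589652. Sequence before the start site was at hand from RefSeq (GRCm38.p6) for 6 of the 10 genes, and 2 are shown because they belong to the ligand with the highest level per length without Gln (Areg) and to the receptor that stood on opposite sides of the control after the 2 treatments (Egfr). Each line gives the 250 bases before the start, 5′ to 3′, Areg at chr5:91139349-91139598 (plus strand) and Egfr at chr11:16751953-16752202 (plus strand), with a match to a searched motif in capitals.
Areg: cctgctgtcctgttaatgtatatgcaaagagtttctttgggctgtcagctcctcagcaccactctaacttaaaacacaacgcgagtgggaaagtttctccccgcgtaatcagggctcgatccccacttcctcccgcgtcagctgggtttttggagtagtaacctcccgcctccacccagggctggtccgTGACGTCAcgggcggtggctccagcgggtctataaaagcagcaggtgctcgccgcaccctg
Egfr: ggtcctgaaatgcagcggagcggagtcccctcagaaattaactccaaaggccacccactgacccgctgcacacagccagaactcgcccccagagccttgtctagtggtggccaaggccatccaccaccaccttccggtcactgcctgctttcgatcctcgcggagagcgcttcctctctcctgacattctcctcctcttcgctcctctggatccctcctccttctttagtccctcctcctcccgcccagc
The motifs searched on both strands were the cAMP response element TGACGTCA, the AP-1 site TGANTCA and the ATF4-type element TGATGNAA. The capitals in Areg are TGACGTCA, which begins 61 bases before the start and is the only match to any of the 3 motifs in the 6 promoters. Over 32851 promoter windows of this length, 1.55% held TGACGTCA, 6.75% held TGANTCA and 3.45% held TGATGNAA. A match of letters does not show that a factor binds there.

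Culture libraries held 25.2 to 48.2 M reads and tumor libraries 16.3 to 20.7 M. Among low counts of genes with reads, the even share was 69.6 to 72.7% in culture and 41.9 to 46.5% in tumors. Reads may thus not have been counted in the same unit in culture and tumors, which was not tested. DRP-104 tumor 3 stood apart, since the summed normalized count (scaled over all 15 libraries, as for all marker sums) of 6 T cell markers (Cd3d, Cd3e, Cd3g, Cd8a, Lck, Trac) was 1631 there and 46.3 to 103 in the other 5 tumors, so tumor values are given with and without it. Vehicle tumor 3 also stood apart, with 5 acinar markers at a sum of 2942 against 64.1 to 903 in the other 5. In DRP-104 tumor 1, reads fell on 17981 genes and in the others on 22140 to 22524. All 6 epithelial markers (Krt8, Krt18, Krt19, Epcam, Cdh1, Muc1) had reads in every group. In the control cells Col1a2, Dcn, Lum and Pdpn of fibroblasts, Adgre1, Lyz2 and C1qb of macrophages and Cd3d, Cd3e, Cd3g and Cd8a of T cells were at 0. Others of these lists had reads there, among them Pdgfra (379 to 504), Cd68 (39.4 to 64.9), Lck (30.2 to 42.6) and Trac (42.1 to 63.6). Cd68 was at 662 to 708 after DON, and Pdgfra at 913 to 947 without Gln.

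In control cells the messages of the 7 ligands together outweighed those of the 3 receptors, although Erbb2 had a higher mean than most ligands. Counts were scaled together over all 15 libraries and divided by the deposited gene length for comparison between genes, so each level also depends on that gene model, and Hbegf was highest at 1323 ± 12 normalized counts per kb (SD, n = 3). Areg followed at 1108 ± 77, then Erbb2 at 488 ± 49, Btc at 463 ± 105 and Tgfa at 390 ± 18, of which neighbors among the last 3 overlapped between libraries. Nrg1 stood at 239 ± 13, and Ereg (93.0 ± 31.1) and Erbb3 (89.0 ± 2.6) overlapped. Egfr, the receptor of most of these ligands, was low at 24.03 ± 4.85, from 192 to 450 reads in a library. Epgn was at most 7 reads in any control library and is listed here only by its reads.

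**Figure D1:**
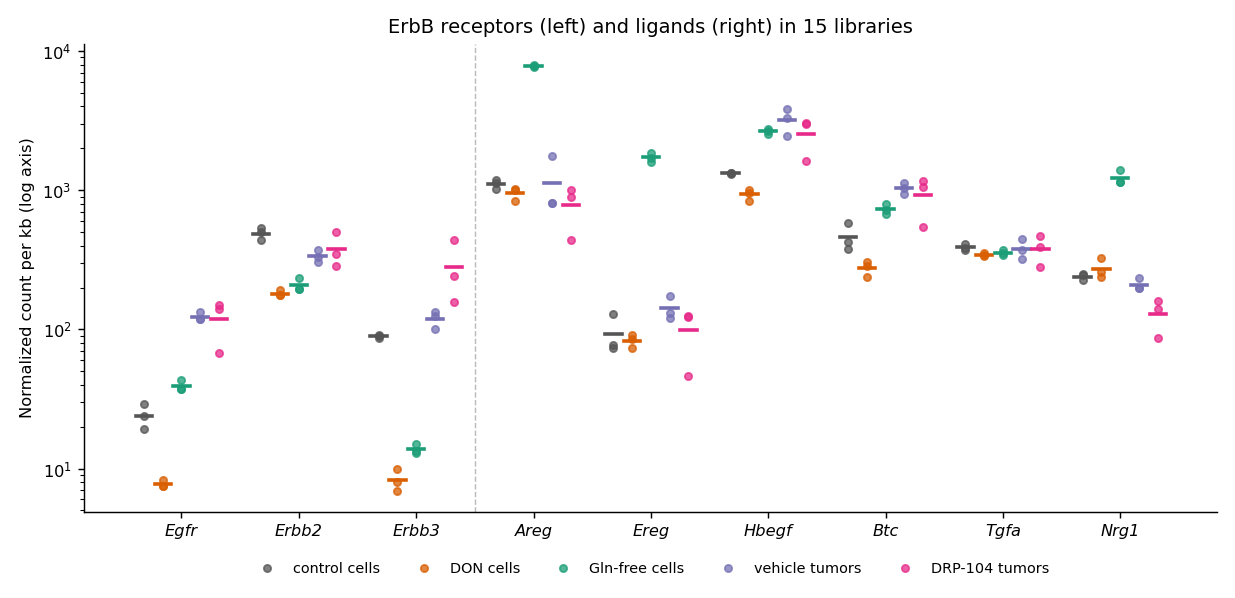
Normalized counts per kb of gene length (log axis) of 3 receptors and 6 ligands in each of the 15 libraries, with points for libraries and bars for the mean of 3. Erbb3 is lowest in DON and Gln-free cells, Areg, Ereg and Nrg1 are highest in Gln-free cells, and Egfr is highest in the tumors. Epgn is left out because it had few or no reads.

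DON left the member ligands nearer to the control than the receptors. All 3 receptors were lower in the DON cells, with no overlap between groups, whereas log2 differences of the 6 ligands with enough counts lay between -0.75 and 0.15. The median log2 difference was -1.63 over the receptors and -0.23 over the ligands, against 0.02 over all 13556 genes tested. By the call used for all genes (limma, adjusted p under 0.05), 5 of 9 members were called, all lower, beside 68.1% of all genes called and 34.7% called lower, and 7 of 9 did not overlap with the controls, beside 71.9% of all genes, and nothing is read from this count because these values chose the members. Epgn, with 0 to 4 reads in DON libraries, was under the minimum mean of 10 in every comparison of normalized counts.

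Erbb3, the kinase-poor partner that binds Nrg1, was at 57.3, 71.1 and 50.4 normalized counts in the 3 DON libraries and at 675, 641 and 644 in the controls. The DON libraries were 10.97-fold lower, a log2 difference of -3.45 ± 0.17 (SE). Egfr was at 90.7, 91.4 and 102 after DON and at 241, 365 and 292 in the controls, a log2 difference of -1.63 ± 0.19. The DON libraries of both genes lay close together, and the lowest Egfr control was above the highest DON library. Erbb2 was at 1048, 1055 and 1159 after DON and at 3055, 3286 and 2629 in the controls, a log2 difference of -1.45 ± 0.10. The summed level of the 6 epithelial markers was also lower, at 92597 to 100385 after DON and 282502 to 356993 in the controls, and its part in the receptor values was not tested.

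Among the ligands, Btc (betacellulin) was the furthest from the control after DON, at 1047, 819 and 994 against 1507, 1345 and 2012 normalized counts, a log2 difference of -0.75 ± 0.14. Hbegf, the heparin-binding ligand, was at 2718, 2381 and 2871 against 3866, 3894 and 3738, a log2 difference of -0.53 ± 0.09. Both ligands were lower in every DON library than in any control. Areg (-0.25 ± 0.11) and Tgfa (-0.21 ± 0.09) were lower by less, and Ereg (-0.15 ± 0.19) and Nrg1 (0.15 ± 0.13) overlapped with the controls. Ereg turned to 0.10 without control library 3, and Nrg1 came to 0.02 without DON library 2.

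Without Gln the member ligands and the receptors parted. Of the 6 ligands, 5 were higher in all Gln-free libraries than in any control and Tgfa was slightly lower, while Erbb2 and Erbb3 were lower and Egfr was higher. The median log2 difference was 1.68 over the ligands and -1.23 over the receptors, against 0.01 over all 13390 genes tested. The call for all genes took in 8 of 9 members, 6 higher and 2 lower, beside 69.4% of all genes (34.5% higher and 34.9% lower), none of the 9 overlapped between groups, where 73.6% of all genes did not, and again nothing is read from the count.

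Ereg (epiregulin) was at 8979, 8221 and 7690 normalized counts without Gln and at 350, 370 and 618 in the controls, 18.6-fold higher, with a log2 difference of 4.26 ± 0.17. Its neighbor Areg (amphiregulin) was at 10881, 10747 and 10998 against 1553, 1431 and 1639, 7.06-fold higher, with a log2 difference of 2.82 ± 0.08. These libraries lay close together, and the lowest Gln-free value of either gene was many times the highest control. Nrg1, the neuregulin that binds ERBB3, was at 3448, 2817 and 2792 against 546, 599 and 606, a log2 difference of 2.36 ± 0.11. Hbegf was at 7568, 6940 and 7369 against 3643, 3678 and 3605, a log2 difference of 1.00 ± 0.08. Btc, the fourth gene of the chromosome 5 group, was at 2405, 2268 and 2664 against 1420, 1270 and 1940, a log2 difference of 0.68 ± 0.14. Tgfa, an EGFR ligand on chromosome 6, differed least, with 1742, 1683 and 1815 against 1830, 2018 and 1898 and a log2 difference of -0.13 ± 0.09.

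Of the receptors, Erbb3 was at 104.4, 90.9 and 94.1 normalized counts without Gln and at 636, 605 and 621 in the controls, a log2 difference of -2.68 ± 0.14. Erbb2 was at 1149, 1130 and 1359 against 2879, 3104 and 2536, a log2 difference of -1.23 ± 0.11. Egfr went the other way, with 446, 513 and 442 against 228, 344 and 282 and a log2 difference of 0.73 ± 0.16. The epithelial marker sum was 115607 to 127257 in the Gln-free cells, below the controls as after DON, and its part was not tested. Control values differ slightly between the comparisons because each deposited table was scaled on its own, although both hold the same 3 control libraries.

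**Figure D2:**
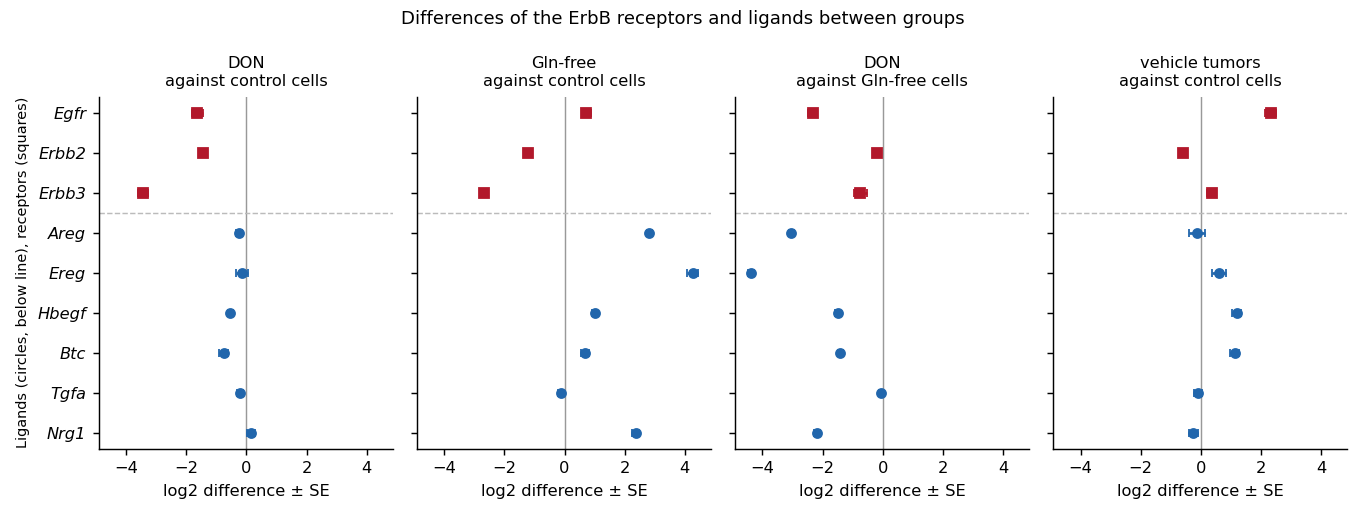
Log2 differences (x axis) with SE of 3 receptors (squares) and 6 ligands (circles) in 4 comparisons of 3 libraries against 3. After DON the receptors lie at -1.45 to -3.45 with the ligands at -0.75 to 0.15, and without Gln 5 ligands lie at 0.68 to 4.26 with Erbb2 and Erbb3 below 0.

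DON and Gln-free cells were also set directly against each other, on reads of the 9 culture libraries scaled together. Every one of the 9 members with enough counts had a lower mean after DON than without Gln, and only Tgfa overlapped between the groups. Ereg was lowest in relation, at 440, 413 and 357 normalized counts after DON and 9082, 8320 and 7781 without Gln, a log2 difference of -4.38 ± 0.08. Areg followed at -3.04 ± 0.07, Egfr at -2.33 ± 0.14, Nrg1 at -2.18 ± 0.11, Hbegf at -1.50 ± 0.07 and Btc at -1.40 ± 0.09. Erbb3 (-0.74 ± 0.22) and Erbb2 (-0.19 ± 0.09) lay closer together, and Tgfa was at -0.05 ± 0.07. The call for all genes took in 7 of 9 members, all lower, beside 68.8% of all genes and 35% lower, and 8 of 9 did not overlap, beside 72.2% of all genes.

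The balance of ligand to receptor can be put in 1 number per library, the summed normalized count per kb of the 7 ligands divided by that of the 3 receptors. The ratio was 5.36 to 6.99 in control cells, 13.8 to 15.6 in DON cells and 51.0 to 59.7 in Gln-free cells. The receptor sum was 601 ± 50 in control cells, 197 ± 9 after DON and 261 ± 20 without Gln. The ligand sum was 3618 ± 192 in control cells, 2862 ± 175 after DON and 14489 ± 380 without Gln. Thus the higher ratio after DON came with a lower receptor sum, and the higher ratio without Gln with both a lower receptor sum and a higher ligand sum. In vehicle tumors the ratio was 7.93 to 13.0 and in DRP-104 tumors 3.00 to 9.78, overlapping between the groups.

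**Figure D3:**
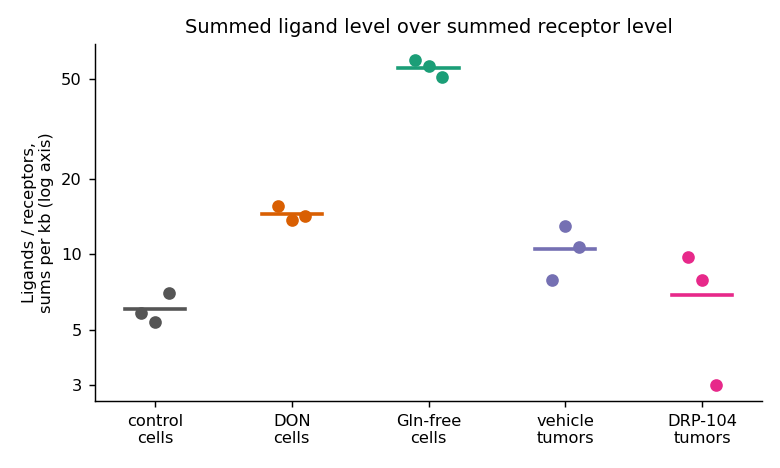
Summed ligand level divided by summed receptor level, both in normalized counts per kb (log axis), with a point for each library and a bar for the mean of 3. The ratio is 5.36 to 6.99 in control cells and 51.0 to 59.7 in Gln-free cells, and DRP-104 tumor 3 is lowest at 3.00.

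Order among members also shifted. After DON, Areg (952 ± 105 normalized counts per kb) and Hbegf (934 ± 86) were highest and overlapped, and Erbb3 (8.27 ± 1.48) and Egfr (7.75 ± 0.50) were lowest above Epgn and overlapped. Without Gln the order was Areg (7800 ± 99), Hbegf (2642 ± 114), Ereg (1725 ± 131), Nrg1 (1234 ± 150), Btc (731 ± 61), Tgfa (355 ± 14), Erbb2 (208 ± 22), Egfr (39.4 ± 3.4) and Erbb3 (13.8 ± 1.0), and no neighbors in it overlapped.

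Over the 9 culture libraries, which fall into 3 groups, the genes most like the 3 receptors and Hbegf were listed by Pearson r of log2 values among 10430 genes, as a description. Nearest to Egfr were Arid1b (r = 0.997), Gramd1b and Ank3 (both 0.994), and nearest to Erbb2 were Myo18a, Sgsm2 and Sdc1 (each 0.997). Nearest to Erbb3 were Cenpa (0.9989), Il22ra1 (0.998) and Aurka (0.997), of which Cenpa and Aurka act in mitosis. Nearest to Hbegf, the ligand highest per length in control cells, were Prrx1 (0.995), Prpsap2 (0.993) and Trmt1l (0.992). Areg and Ereg had an r of 0.993 with each other, and Erbb2 and Erbb3 of 0.975.

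The rest of the family was not among the members and was tested. This list was also made with earlier results of these data known, so its p-values are not free of selection. Nrg2, a further neuregulin, fell after DON to 11.9, 14.8 and 25.2 normalized counts from 252, 242 and 152 in the controls, a log2 difference of -3.59 ± 0.32 (limma, adjusted p = 2.33e-07). It fell less without Gln, to 125, 125 and 110 from 237, 229 and 147 (-0.73 ± 0.21, adjusted p = 0.00647), and the difference between DON and Gln-free cells was itself -2.83 ± 0.31 (adjusted p = 1.20e-06). Nrg4, an ERBB4 ligand, fell by 1.75 on the log2 scale after DON (adjusted p = 0.00381) and fell by 1.76 without Gln (adjusted p = 0.00284). The log2 difference after DON was -1.14 without DON library 1, where Nrg4 was at 7.16 against 23.1 and 32.7 in the other two. Egf, the founding ligand, rose without Gln to 37.6, 58.8 and 34.03 from 26.1, 4.72 and 10.0 (1.86 ± 0.53, adjusted p = 0.00679). After DON, Egf was at 22.7, 24.9 and 33.6 against 27.7, 5 and 10.4 and did not pass the test (1.15 ± 0.55, adjusted p = 0.0763), but without control library 1 the adjusted p was 0.0101. Erbb4 and Nrg3 had no read in any culture library. The 3 tested ligands of the rest of the family had a median log2 difference of -1.75 after DON, beside -1.63 over the receptors. Without Gln their median was -0.73, beside 1.68 over the member ligands. The split between ligands and receptors in culture therefore describes the member ligands only.

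Other genes of the pathway, 35 in 3 lists, were tested in the same fits. These lists too were made with earlier results of these data known, so their counts and p-values are not free of selection. After DON, 25 of 35 changed, 6 up and 19 down (median log2 difference -0.25), beside 68.1% of all genes, 33.3% higher and 34.7% lower. Under quantile normalization, which raised the median of all genes by 0.10 on the log2 scale, the split was 9 up and 17 down. Without Gln, 26 of 35 changed, 14 up and 12 down (median 0.00), beside 69.4% of all genes, 34.5% higher and 34.9% lower. The shares called in either direction are close to those over all genes, while more of the 35 fell than rose after DON.

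Of 10 genes of ligand processing, which include the inhibitor Timp3, 8 fell and none rose after DON, with a list median of -0.88. Without Gln 8 fell and 1 rose, with a median of -0.58. Over all genes 34.7% fell after DON and 34.9% fell without Gln. Adam17, a protease of the ADAM family named after its values were seen, was not called after DON (-0.02 ± 0.09, adjusted p = 0.839). It fell without Gln (-0.46 ± 0.10, adjusted p = 8.85e-04). Adam8, a membrane protease, fell after DON to 13.1, 14.8 and 15.95 normalized counts from 135, 190 and 142 (-3.31 ± 0.28, adjusted p = 1.58e-07). Without Gln it fell to 35.5, 33.0 and 20.02 from 127, 179 and 137 (-2.31 ± 0.28, adjusted p = 8.41e-06). Adam12, a protease that cuts several ligand precursors, fell after DON by 2.29 on the log2 scale (SE 0.54, adjusted p = 0.00184), at low counts of 2.39, 9.23 and 6.72 against 40.2, 30.0 and 23.4. It also fell without Gln (-1.12 ± 0.40, adjusted p = 0.0250), but not when control library 1 or 2 or Gln-free library 2 or 3 was left out (adjusted p up to 0.104). Timp3, an inhibitor of these proteases, fell after DON (-1.66 ± 0.47, adjusted p = 0.00617) and without Gln (-1.51 ± 0.44, adjusted p = 0.00797, but 0.0564 without control library 1), and DON and Gln-free cells were -0.11 ± 0.51 apart (adjusted p = 0.852). The gene that rose was Adam9, at 14421, 13944 and 14002 without Gln against 9257, 9414 and 11959 (0.48 ± 0.10, adjusted p = 9.06e-04).

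Many genes listed under receptor restraint and turnover were lower after DON than without Gln, and what each does to the receptors was not tested. Of the 12 listed, 3 rose and 6 fell after DON (median -0.29), while 9 rose and none fell without Gln (median 0.44). Set directly against Gln-free cells, DON cells were lower for 9 of the 12 and higher for none, beside 35% of all genes lower. Errfi1, which encodes the feedback inhibitor MIG6, rose without Gln to 28280, 27367 and 28837 from 13852, 14992 and 14403 (0.97 ± 0.08, adjusted p = 2.72e-07). After DON it fell (-0.96 ± 0.09, adjusted p = 3.74e-07), and the difference between DON and Gln-free cells was -1.90 ± 0.06 (adjusted p = 7.69e-12). Lrig1, which promotes loss of ErbB receptors from the membrane, fell after DON to 1019, 706 and 1005 from 2213, 2373 and 1990 (-1.28 ± 0.14, adjusted p = 1.41e-06). Ptprj, a phosphatase that acts on EGFR, fell to 215, 307 and 181 from 731, 799 and 881 (-1.80 ± 0.18, adjusted p = 5.78e-07). Some rose under both treatments. Lrig2 rose by 0.73 ± 0.10 after DON (adjusted p = 2.51e-05) and 1.24 ± 0.10 without Gln (adjusted p = 2.95e-07). Rnf41, which encodes NRDP1, a ubiquitin ligase for ERBB3, rose by 0.49 ± 0.09 after DON (adjusted p = 3.98e-04) and 0.44 ± 0.09 without Gln (adjusted p = 8.64e-04). The third gene that rose after DON, Cblb, a ubiquitin ligase of the Cbl family, was named after its values were seen and rose by 0.39 ± 0.13 (adjusted p = 0.0141), but not without DON library 3 or control library 1 (adjusted p up to 0.0819). Without Gln it rose by 0.44 ± 0.11 (adjusted p = 0.00421). DON and Gln-free cells were 0.07 ± 0.07 apart for Rnf41 (adjusted p = 0.375) and -0.01 ± 0.10 apart for Cblb (adjusted p = 0.928).

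Of 13 adaptor genes, 3 rose and 5 fell after DON, and 4 rose and 4 fell without Gln. The 8 of 13 called in each are no more than the share of all genes, 68.1% and 69.4%. Gab2, a docking protein, rose after DON to 1436, 1679 and 1755 from 531, 691 and 566 (1.45 ± 0.12, adjusted p = 1.67e-07) and also rose without Gln (1.31 ± 0.12, adjusted p = 7.03e-07). Sos2, a guanine nucleotide exchange factor, rose by 1.08 ± 0.11 after DON (adjusted p = 1.12e-06) and 1.57 ± 0.11 without Gln (adjusted p = 7.53e-08). Shc1, an adaptor of EGFR, fell after DON to 6829, 6066 and 6429 from 15556, 15859 and 13653 (-1.22 ± 0.09, adjusted p = 4.41e-08) and also fell without Gln (-0.88 ± 0.08, adjusted p = 7.30e-07). Vav2, a further exchange factor, fell by 1.43 on the log2 scale after DON (adjusted p = 2.89e-08) and fell by 0.72 without Gln (adjusted p = 2.64e-05). Both were lower after DON than without Gln, Shc1 at -0.30 ± 0.06 (adjusted p = 2.24e-04) and Vav2 at -0.68 ± 0.09 (adjusted p = 6.80e-06). Plcg1 (-1.43 ± 0.14, adjusted p = 1.12e-06) and Pik3r2 (-1.45 ± 0.12, adjusted p = 2.80e-07), which link receptors to phospholipid signals, fell without Gln. After DON, Pik3r2 was called lower by less, with overlap between groups (-0.25 ± 0.11, limma, adjusted p = 0.0468, up to 0.644 over the alternatives). Plcg1 was not called after DON (-0.09 ± 0.10, limma, adjusted p = 0.437). Both were higher after DON than without Gln, Plcg1 by 1.37 ± 0.12 (adjusted p = 1.23e-07) and Pik3r2 by 1.23 ± 0.09 (adjusted p = 1.04e-08).

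**Figure D4:**
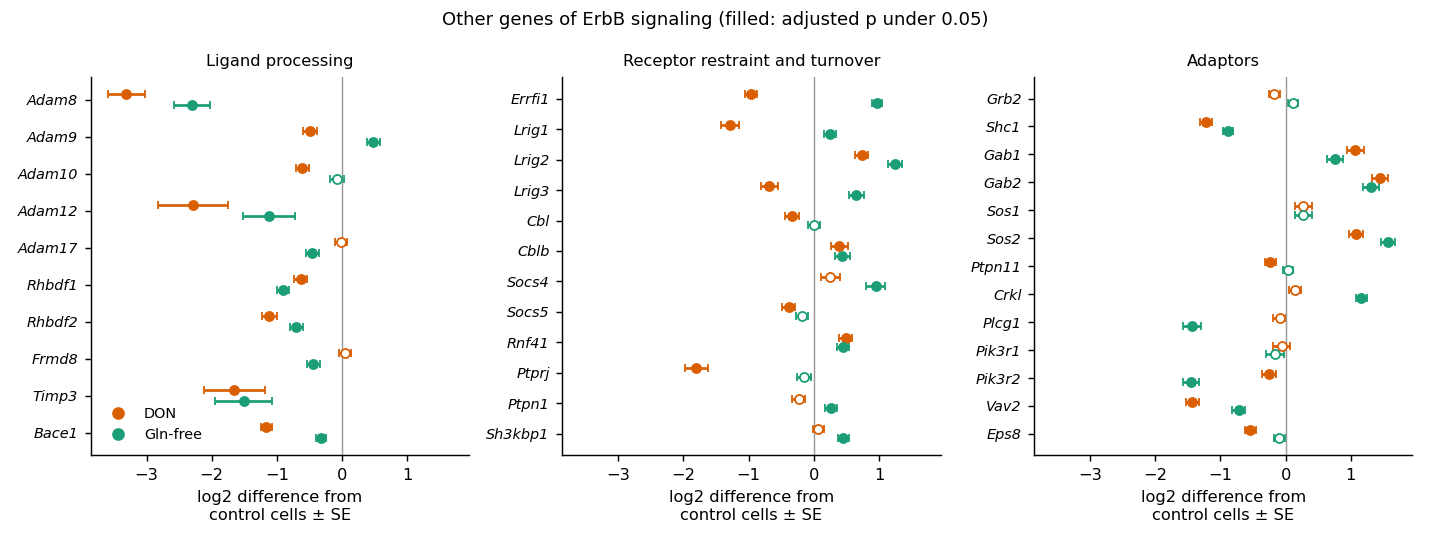
Log2 difference from control cells (x axis) with SE for 35 other genes of the pathway, after DON (orange) and without Gln (green), filled where the adjusted p was under 0.05. In the middle panel 9 of 12 genes rose without Gln, and after DON 3 rose and 6 fell. Both treatments were compared with the same 3 control libraries.

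Of the members, Egfr differed most between tumors and cultured cells. Scaled together, Egfr was at 1199, 1343 and 1191 normalized counts in the vehicle tumors and at 202, 304 and 245 in the control cells, 4.97-fold higher, with a log2 difference of 2.33 ± 0.17. Hbegf was at 5712, 8980 and 7706 in tumors and 3239, 3244 and 3133 in culture (1.20 ± 0.16), and Btc was at 2644, 3190 and 2932 against 1262, 1121 and 1686 (1.12 ± 0.16). These 3 genes were higher in every vehicle tumor than in any control culture. Erbb2 was lower, at 1829, 1519 and 1646 against 2560, 2737 and 2203 (-0.58 ± 0.13), and Erbb3 was slightly higher (0.37 ± 0.15). Ereg (0.60 ± 0.23), Areg (-0.12 ± 0.26) and Tgfa (-0.10 ± 0.14, or 0.05 under quantile normalization, which moved the median of all genes by -0.19) overlapped between the groups, and Nrg1 was at -0.24 ± 0.15. Without vehicle tumor 3, the one with the acinar markers, Areg turned to 0.07 and Tgfa came to -0.22, while Egfr was at 2.36, Hbegf at 1.16, Btc at 1.12 and Erbb2 at -0.58. In bulk samples fewer cells of a type and less RNA per cell cannot be told apart. Fibroblast markers summed to 32213 to 61573 and macrophage markers to 8230 to 11608 in the vehicle tumors, against 396 to 524 and 46.4 to 73.0 in control cells, and their part in these differences was not tested. Culture and tumor libraries were deposited in separate tables and differed in depth and in the share of even counts. None of these can be told apart from the difference between culture and tumor.

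The median log2 difference between tumors and culture was 0.25 over the ligands and 0.37 over the receptors, against 0.09 over all 15009 genes, so ligands and receptors did not part here as they did in culture. The gap of -0.12 turned to 0.02 without vehicle tumor 1 or without control library 3. By the call for all genes 5 of 9 members were called, 4 higher and 1 lower, beside 59.7% of all genes (33% higher and 26.7% lower), and 6 of 9 did not overlap, beside 65.9% of all genes. Per kb, Hbegf was highest in vehicle tumors as in control culture (3187 ± 693), followed by Areg (1131 ± 552) and Btc (1029 ± 93), which overlapped. Egfr (124 ± 8), Erbb3 (120 ± 16) and Ereg (142 ± 28) lay near each other, with each overlapping its neighbor. Of the rest of the family, Nrg2 was at 5.63, 23.4 and 12.1 normalized counts in vehicle tumors against 211, 202 and 127 in control cells, a log2 difference of -3.78 ± 0.47 (adjusted p = 7.33e-05). Erbb4 had at most 1 read in any tumor and Nrg3 had none.

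DRP-104 tumors overlapped with vehicle tumors in 7 of the 9 members, and 0 were called by limma, edgeR or DESeq2, beside 0% of 15454 genes called by limma or edgeR, 56 genes called by DESeq2 and 5.01% at an unadjusted p under 0.05. In normalized counts Erbb3 was at 745, 1166 and 2046 under DRP-104 and at 587, 627 and 479 under vehicle, and Nrg1 at 231, 269 and 141 against 382, 327 and 327. So Erbb3 was higher in every DRP-104 tumor (log2 difference 1.11 ± 0.33) and Nrg1 lower in every DRP-104 tumor (-0.74 ± 0.27), beside 10.6% of all genes with groups that did not overlap. Without DRP-104 tumor 3 these differences were 0.73 and -0.46, and without vehicle tumor 3 they were 1.00 and -0.77. Fibroblast markers summed to 15384 to 26331 in the DRP-104 tumors against 32213 to 61573 and endothelial markers to 1560 to 2396 against 2528 to 3059, and their part in the values of Erbb3 and Nrg1 was not tested.

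DRP-104 tumor 3, with the T cell markers, had the lowest value of all 6 tumors for Egfr (528), Areg (403), Ereg (148), Hbegf (2983), Tgfa (910), Btc (1203) and Nrg1, and the highest for Erbb2 (1934) and Erbb3. In the other DRP-104 tumors Egfr was at 1123 and 1219 and in vehicle tumors at 951, 1065 and 951. The log2 difference of Egfr was -0.14 ± 0.30 with tumor 3 and 0.24 without it, that of Erbb2 was 0.13 ± 0.21 and -0.08, and that of Btc was -0.23 ± 0.28 and 0.13. Areg came to -0.52 ± 0.40 with tumor 3 and -0.14 without it, Ereg to -0.65 ± 0.39 and -0.17, Hbegf to -0.35 ± 0.28 and -0.05, and Tgfa to -0.02 ± 0.23 and 0.20. The median over the ligands was -0.44 and over the receptors 0.13, a gap of -0.57. The gap came to -0.34 without tumor 3 and to -0.25 without vehicle tumor 2. With each library left out in turn it ranged from -0.89 to -0.25. The sum of the 6 epithelial markers was also highest in DRP-104 tumor 3, at 212708 against 136361 to 183853 in the other 5. The part of the T cell and epithelial markers in these values was not tested.

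A separate table of FPKM carries the same treatment labels. The choice of members did not use it, and its values were tested by those labels. If it holds the same tumors as the normalized counts, these tests are not independent of the choice. In that table the tumors were taken by treatment label only, because columns of the same name did not match those of the normalized counts. The nearest matches crossed the treatment labels, since the deviations of DRP-104 tumor 3 from its group mean in the normalized counts were most like those of a vehicle column of FPKM (r = 0.545) and those of DRP-104 tumor 2 most like another vehicle column (r = 0.463). No FPKM column had a high sum of the 6 T cell markers (0.555 to 4.09 FPKM), and the acinar sum was highest in a DRP-104 column (2959 FPKM against 137 to 796). Whether both tables hold the same tumors under the same treatment labels is therefore not known, and the tests below rest on the FPKM labels alone. None of the 9 members with a mean FPKM of at least 0.5 was called (limma, smallest adjusted p = 0.630), 0 had an unadjusted p under 0.05, all overlapped between groups (19.3% of all genes did not), and 0% of 14183 genes were called and 7.61% had an unadjusted p under 0.05. Erbb3 was at 7.88, 6.79 and 8.56 FPKM in DRP-104 tumors and 8.22, 12.7 and 7.02 in vehicle tumors, a log2(FPKM + 1) difference of -0.20 with a 95% interval of -0.71 to 0.30 (exact permutation p = 0.6, two-sided). The higher Erbb3 of the normalized counts was therefore not seen in the FPKM values. Nrg1 was at 1.94, 4.50 and 4.57 against 2.77, 3.20 and 3.73 FPKM, a difference of 0.09 (-0.53 to 0.71, exact permutation p = 0.8). Btc was furthest apart, at 14.7, 35.3 and 35.2 against 38.7, 34.7 and 45.0 FPKM (-0.55, interval -1.31 to 0.21, exact permutation p = 0.3). Permuting 3 against 3 tumors cannot give a p below 0.1. A single DRP-104 library was lowest of the 6 for Egfr (4.82), Ereg (2.98), Btc and Nrg1 in this table too. Other intervals were -0.28 to 0.49 for Egfr, -0.30 to 0.52 for Erbb2, -0.44 to 0.49 for Areg, -0.91 to 0.57 for Ereg, -0.21 to 0.64 for Hbegf and -0.50 to 0.34 for Tgfa, so changes within these bounds could not be detected.

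**Figure D5:**
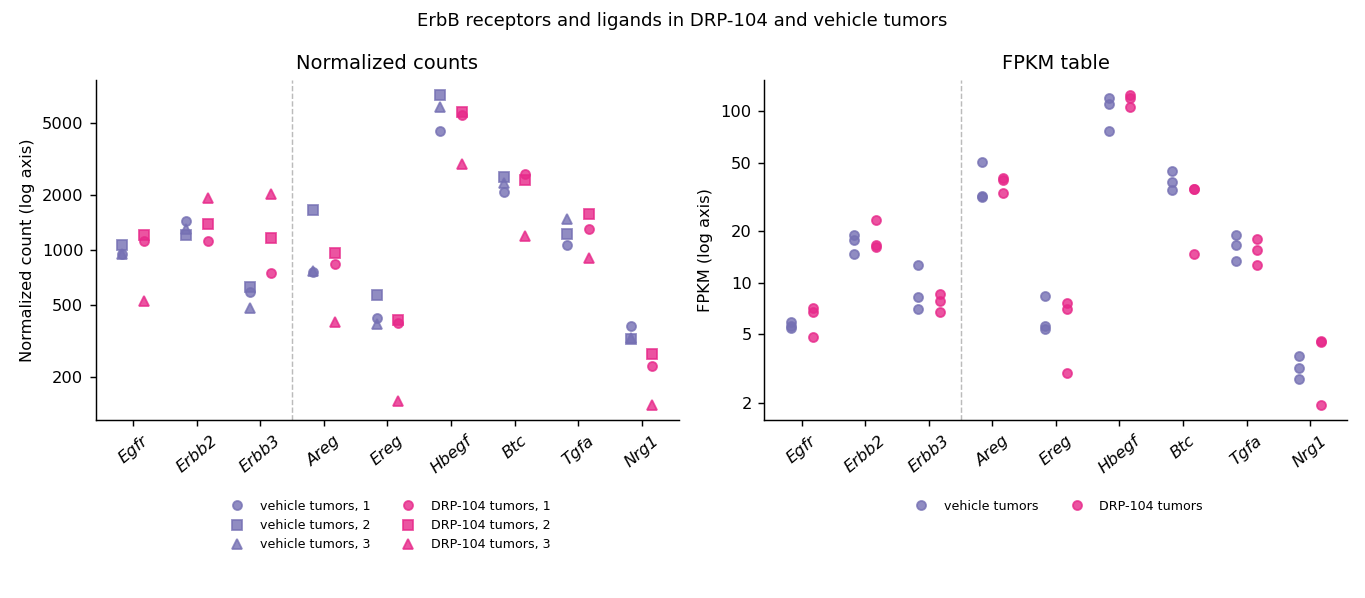
Values of 3 receptors and 6 ligands in 3 DRP-104 and 3 vehicle tumors, as normalized counts (left, log axis, symbols for the tumors) and as FPKM (right, log axis, tumors by treatment label only). DRP-104 tumor 3 is lowest for Egfr and every ligand on the left, and Erbb3 is 745 to 2046 against 479 to 627 on the left with no separation on the right.

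Of the 35 other pathway genes, 0 passed the test in the tumors by limma, edgeR or DESeq2 (smallest adjusted p in limma 0.916), with 2 at an unadjusted p under 0.05 in limma and a median log2 difference of -0.14 against -0.01 over all genes. Egf (-1.07, 95% interval -2.87 to 0.74) and Nrg4 (0.94, interval -0.81 to 2.69) did not pass the test in the tumors either (adjusted p = 0.920 for both), and Nrg4 was at 367 normalized counts in DRP-104 tumor 3 against 33.7 to 90.3 in the other 5. The difference of Nrg4 came to 0.03 without that tumor and 0.63 without vehicle tumor 3, and that of Egf to -0.32 without DRP-104 tumor 1 and -0.70 without vehicle tumor 1.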

How the data were processed

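The authors' comparison tables hold a deposited signal, the gene count divided by 1 size factor per library, scaled within each table. Per the methods, Novogene aligned reads with HISAT2 and ran DESeq2. The submitters' notes also name CASAVA, STAR 2.5 and GRCm39 without a role, the counting tool and strand are not given in the sources used here, and coordinates in the authors' FPKM table overlap GRCm38 (GENCODE M21) genes of the same ID for 99.8% of 34411. FPKM was normalized by the authors for gene length and depth, and the deposited gene length of that table gave levels per kb. No FPKM column could be tied to a tumor of the other tables (r of deviations at most 0.545 over 10019 genes). Control columns of the culture tables carry the titles of the vehicle tumors, and were taken as the control cells of those comparisons as a group.

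Whole reads were recovered from the signal (at least 99.99% of the values in a column, tolerance 0.0051), and the control reads were the same in both culture tables for 55291 of 55291 genes. With 3 libraries a group, the linear models of limma 3.58.1 (R 4.3.3, eBayes trend) were fitted to log2(value + 1) of genes with a mean of at least 10 (FPKM at least 0.5), treated minus control, with Benjamini-Hochberg adjustment over all genes tested. Differences are on this scale, which understates change in low genes. DON against Gln-free cells and tumors against culture used recovered reads scaled by median-of-ratios. P-values measure the spread between samples, which may be technical since the labels do not say whether cultures were separate. Alternatives were edgeR 4.0.16, DESeq2 1.42.0, other filters and pseudocounts, quantile normalization, a replicate block and leaving out each library. On simulated data with 200 changed genes, the limma step was tested first. Tables were handled in Python 3.11.15 with pandas 2.3.3 and numpy 2.4.6 and drawn with matplotlib 3.10.9.

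Members and gene lists were chosen with earlier results of these data known. Apart from Adam17 and Cblb, named pathway genes are the 2 largest rises and falls per list and culture comparison with an adjusted p under 0.05 and no overlap. Likeness was ranked over genes with a mean of at least 100. Reads without molecular identifiers are not independent molecules. The authors' own fold changes and p-values in these tables were not used. An item of the line's genotype is not reported here.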

Additional observations from a re-analysis of the deposited data

Results flagged for a closer look

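Some members lay on opposite sides of the control in 2 contrasts, in every library and without overlap. Egfr was at a log2 difference of -1.63 after DON and 0.73 without Gln. Areg was at -0.25 (not called) and 2.82, Hbegf at -0.53 and 1.00, and Btc at -0.75 and 0.68 in the same contrasts. Set directly against Gln-free cells, DON cells were at -2.33 for Egfr, -3.04 for Areg, -1.50 for Hbegf and -1.40 for Btc on the log2 scale, each called by limma over all genes and given as a description because the members were chosen on these libraries. Erbb3 was at -3.45 in DON cells and 1.11 in DRP-104 tumors, each against its own control, and the difference between these was not tested. In the tumors Erbb3 was not called, came to 0.73 without DRP-104 tumor 3 and was at -0.20 in the FPKM values.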

How the results depend on the processing

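No value past the threshold turned its direction under any alternative. The gap between ligand and receptor medians was 1.40 after DON and 1.20 to 1.51 with a library left out (1.20 without control library 2). At a minimum mean of 1, which brings Epgn in, it was 2.23 in place of 2.91 without Gln and -0.76 in place of -1.10 for DON against Gln-free cells. For DON, 23 to 30 pathway genes and for Gln-free cells 23 to 27 were called over all alternatives. Adam8 in DON against Gln-free cells (adjusted p = 0.0391) was no longer called by DESeq2, at a minimum mean of 1, with the block or when each of 5 of the 6 libraries was left out in turn. The replicate numbers do not pair the samples (r of deviations -0.03 to 0.08 in culture and -0.36 to 0.04 in the tumor counts), and the fit with a replicate block called 26, 27, 0 and 27 pathway genes in the DON, Gln-free, DRP-104 and DON against Gln-free comparisons, against 25, 26, 0 and 27 without it. No paired analysis of tumors against culture was run. Depth limits what can be said of Epgn, Erbb4 and Nrg3.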
